A study of Mus musculus with 6 samples.

Results

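A total of 165 genes of membrane traffic, of 12125 genes listed, were followed in kidney cells of mice with and without *Trf1* in the cells that express Cre. They were selected by symbol: the *Vps*, *Snx*, *Exoc*, *Trappc*, *Stx* and *Vamp* genes, the *Sec* genes with a number, the *Cop* genes of the COPI coat, the adaptor subunits named *Ap1* to *Ap5* and the GTPases *Arf1* to *Arf6*. Pseudogenes were left out. The rule uses no measured value, although it was set with earlier results of these data known. A name that begins with *Sec* or *Vps* marks yeast secretion or vacuolar sorting, so that the list also holds the ER translocon, lipid transfer proteins and *Vps72*, a subunit of chromatin complexes. The 165 genes are described in 17 classes by the role of their proteins.

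The libraries came from 3 Trf1+/+; Col1a2-CreERT2 and 3 Trf1flox/flox; Col1a2-CreERT2 mice, and are numbered 1 to 3 within each genotype. All 6 mice carried the tamoxifen-inducible CreERT2 recombinase under the fibroblast *Col1a2* promoter and the KFP reporter, a red fluorescent protein behind a STOP cassette that Cre removes, and males and females aged 6 to 8 weeks received tamoxifen intraperitoneally 3 times a week for 8 weeks. TRF1, encoded by *Terf1*, is a subunit of shelterin, the protein complex that protects telomeres. RNA from 500 cells sorted from digested kidneys on CD29, an integrin subunit, and KFP was amplified and sequenced per library. Values below are normalized counts (the reads of a gene divided by 1 size factor per library), given in the order of replicates 1, 2 and 3 with Trf1+/+ before Trf1flox/flox libraries, and log2 in parentheses stands for the log2 fold change of Trf1flox/flox over Trf1+/+ with its standard error.

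Proteins and membrane move between organelles in vesicles that bud under a coat, are caught by a tether and fuse through SNARE proteins. COPII carries new proteins from the ER to the Golgi, COPI carries escaped ER proteins back, and clathrin adaptors sort cargo at the Golgi, endosomes and plasma membrane. Retromer and sorting nexins rescue receptors from endosomes before the ESCRT machinery sends the remaining cargo to lysosomes. In the kidney these routes serve, among others, the uptake of filtered protein by proximal tubule cells and the export of collagen by fibroblasts.

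The libraries held 10263382 to 12248797 reads on the genes listed, and a single read was worth 0.689 to 1.09 normalized counts. The floor of each library was set at 3 reads, a limit for counting error only, since molecules were not tagged before PCR. *Terf1* had 0.891, 253 and 235 normalized counts in Trf1+/+ libraries, against 110.0, 7.65 and 12.4 in Trf1flox/flox libraries, a log2 fold change of -1.04 ± 2.63 (SE). The single read in the library labelled Trf1+/+ replicate 1 did not bear out its label. It could not settle the genotype, since 43.8% of all genes listed were at the floor there. In the library labelled Trf1flox/flox replicate 1 *Terf1* was not as low as in the other Trf1flox/flox libraries but below Trf1+/+ replicates 2 and 3, so that this label was not borne out either. Without that library 82 of 144 traffic genes were higher in Trf1flox/flox mice (median log2 fold change 0.23, against 0.13 over all genes tested then). Of the 15 fibroblast markers examined 3 had a row, and *Col1a2*, whose promoter drives Cre, was at the floor in all 6 libraries. The summed fibroblast markers ranged from 395 to 1673 normalized counts in Trf1+/+ and from 81.6 to 1192 in Trf1flox/flox libraries, and nearly all of this was *Gsn*, except for 93.6, 97.3 and 39.3 normalized counts of *Dcn* in Trf1+/+ replicate 3 and Trf1flox/flox replicates 2 and 3. The 10 proximal tubule markers summed to 19123 to 89542 and 20152 to 112731, and the 8 markers of the loop of Henle and distal tubule to 107182 to 165976 and 77671 to 175421. The labelled cell type, fibroblast, was therefore not borne out by its markers, and the cells are called sorted kidney cells here. In such bulk samples fewer cells of a type and less RNA per cell cannot be told apart.

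The detection of these genes differed between libraries before any comparison of genotypes. In the library labelled Trf1+/+ replicate 1, 68 of the 165 genes (41.2%) were at the floor, against 20 and 12 in the other Trf1+/+ libraries and 16, 34 and 6 in the Trf1flox/flox libraries. Over all genes listed the share at the floor was 43.8% in that library and 8.37% to 29.8% in the others. Of genes that averaged 100 or more normalized counts elsewhere, 34.1% of the traffic genes and 27.1% of all genes were at the floor in the library labelled Trf1+/+ replicate 1, and 15.7% and 14.8% in Trf1flox/flox replicate 2. The library labelled Trf1+/+ replicate 1 also had the highest value of the 6 for 48 of the traffic genes, and within single complexes some subunits were at the floor there and others at their highest value. How many of all genes were highest there was not counted, so the 48 cannot be read as particular to the traffic genes. Only 76 of the 165 genes (46.1%) were above the floor in all 6 libraries, against 41.2% of all genes.

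**Figure D1:**
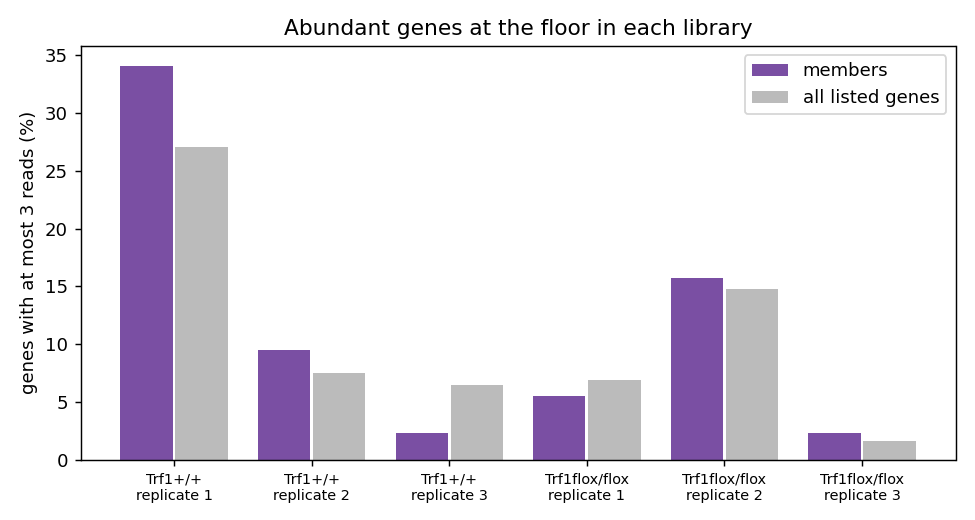
Share of abundant genes with at most 3 reads in each of the 6 libraries (y axis, percent), for the traffic genes (purple) and for all listed genes (grey); abundant genes averaged 100 or more normalized counts in the other 5. The share reaches 34.1% of the traffic genes in the library labelled Trf1+/+ replicate 1 and 15.7% in Trf1flox/flox replicate 2, and is 2.34% to 9.52% in the other 4.

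The following 3 pairs of related genes are shown by sequence, because the members of each pair lay at unlike levels in the 2 genotypes or encode the same subunit, and reads can be told apart only where the copies differ. Each window is the longest run of bases shared by the coding sequences with up to 15 bases on either side, written 5′ to 3′ along the transcript, and capitals mark bases that differ between the pair. Positions are on GRCm38 from GENCODE M21, and a window that spans 2 exons skips the intron between them.
Vps26a: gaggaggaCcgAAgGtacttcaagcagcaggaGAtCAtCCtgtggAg
Vps26b: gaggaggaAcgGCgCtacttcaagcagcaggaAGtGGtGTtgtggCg
Arf1: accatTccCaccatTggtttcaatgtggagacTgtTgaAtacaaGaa
Arf2: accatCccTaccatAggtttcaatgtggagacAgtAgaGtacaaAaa
Sec61a1: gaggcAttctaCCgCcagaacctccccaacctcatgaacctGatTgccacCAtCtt
Sec61a2: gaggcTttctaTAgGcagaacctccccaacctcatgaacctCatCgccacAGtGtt
The windows lie in *Vps26a* (chr10:62456842-62458953, minus strand, exons 8 and 9) and *Vps26b* (chr9:27010021-27010393, minus strand, exons 5 and 6), in *Arf1* (chr11:59213223-59213355, minus strand, exons 2 and 3) and *Arf2* (chr11:103969230-103972983, plus strand, exons 2 and 3), and in *Sec61a1* (chr6:88508590-88508645, minus strand, exon 8) and *Sec61a2* (chr2:5876869-5876924, minus strand, exon 8). *Vps26a* and *Vps26b*, alternative cargo-arrestin subunits of retromer, were identical at 57.1% of aligned coding bases and shared no run longer than 17 bases. *Arf1* and *Arf2* were identical at 80.5% with a longest run of 17 bases, and *Sec61a1* and *Sec61a2*, both channel subunits of the translocon, at 78.4% with a run of 26 bases.

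Of the 165 genes 153 passed the filter on low values (10 or more normalized counts in 3 or more libraries) and were tested with limma among 9966 genes. In the comparison of Trf1flox/flox with Trf1+/+ mice 88 were higher and 65 lower, and the share higher (57.5%) was close to the 55.9% of all tested genes, of which 44.1% were lower. The median log2 fold change, on the scale of log2(normalized count + 1), was 0.25 against 0.20 over all tested genes. This scale can understate the change of low genes, but can give a larger change for genes at 0 in only some libraries. The log2 fold change of *Arf2* was 5.83 on it and 2.44 with edgeR, and that of *Stx2* 6.50 and 10.6. No gene had an adjusted p under 0.05 (smallest 0.970 in limma), as for all tested genes (0.0%). At an unadjusted p under 0.05 there were 7 genes (4.58%), with a background of 3.13%: *Arf2*, *Sec61a1*, *Stx2*, *Vps37c* and *Vps4a* were higher (background 2.1%), and *Exoc6* and *Stx6* lower (background 1.03%). With edgeR 0 genes passed after adjustment (background 0.0%) and 1, *Stx2*, before it (background 1.97%), and with DESeq2 1 passed after adjustment, again *Stx2* (background 0.617%), and 7 before it (background 4.11%).

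The libraries of the genotypes did not overlap for 15 of the 153 genes (9.8%), against 8.68% of all tested genes. Of these 7 were higher in all 3 Trf1flox/flox libraries (background 5.35%) and 8 lower (background 3.33%). The exact two-sided permutation p of 3 libraries against 3 cannot fall below 0.1. Of the 7 higher genes 6 were at the floor in the library labelled Trf1+/+ replicate 1, *Stx16* being the exception. The 8 lower genes could not be at the floor there, since their direction and the filter exclude it. The typical spread was wide: the median residual SD was 2.24 on the log2 scale, against 2.17 for all tested genes.

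**Figure D2:**
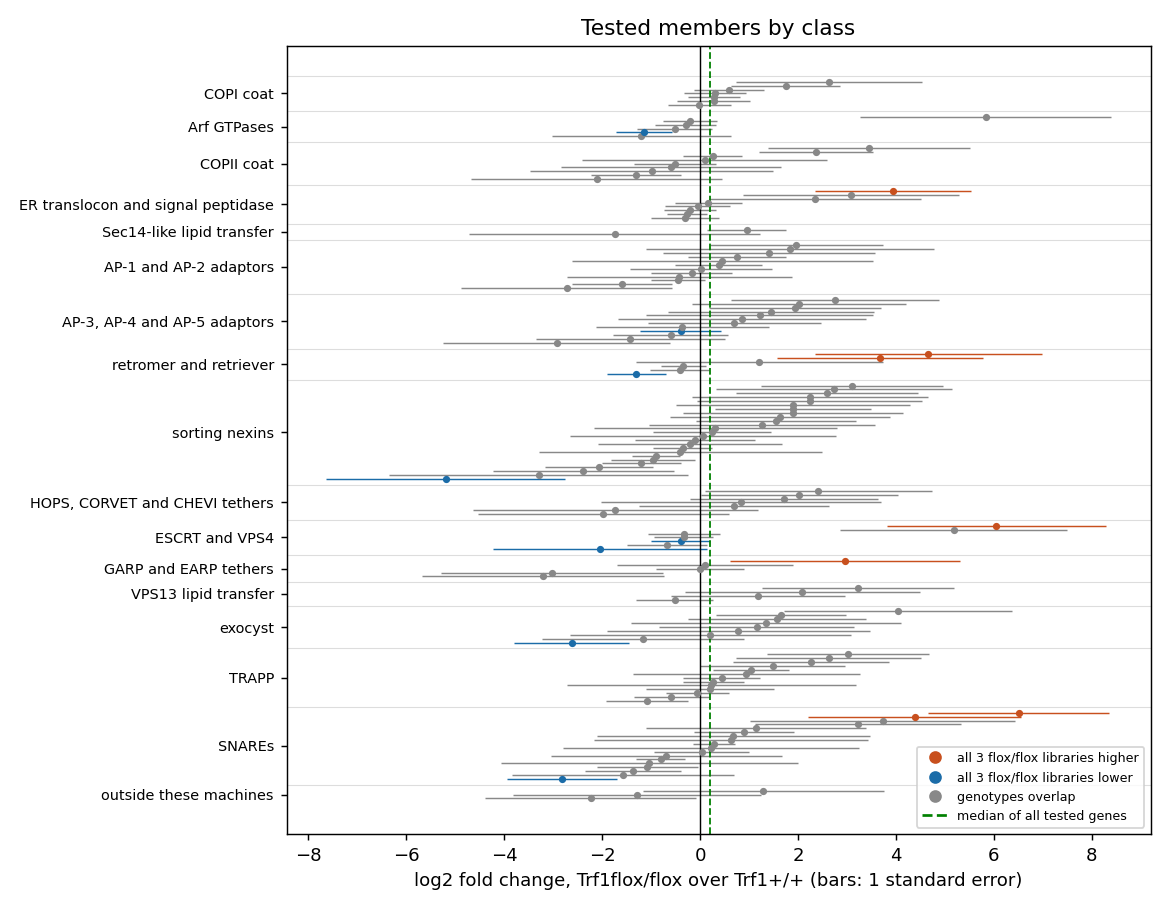
Log2 fold change of each of the 153 tested genes (Trf1flox/flox over Trf1+/+; points, with bars of 1 standard error), grouped by class; orange and blue points are the 7 and 8 genes whose libraries do not overlap between genotypes. The genes spread on both sides of 0, around the median of all tested genes (0.20, dashed line).

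**Figure D3:**
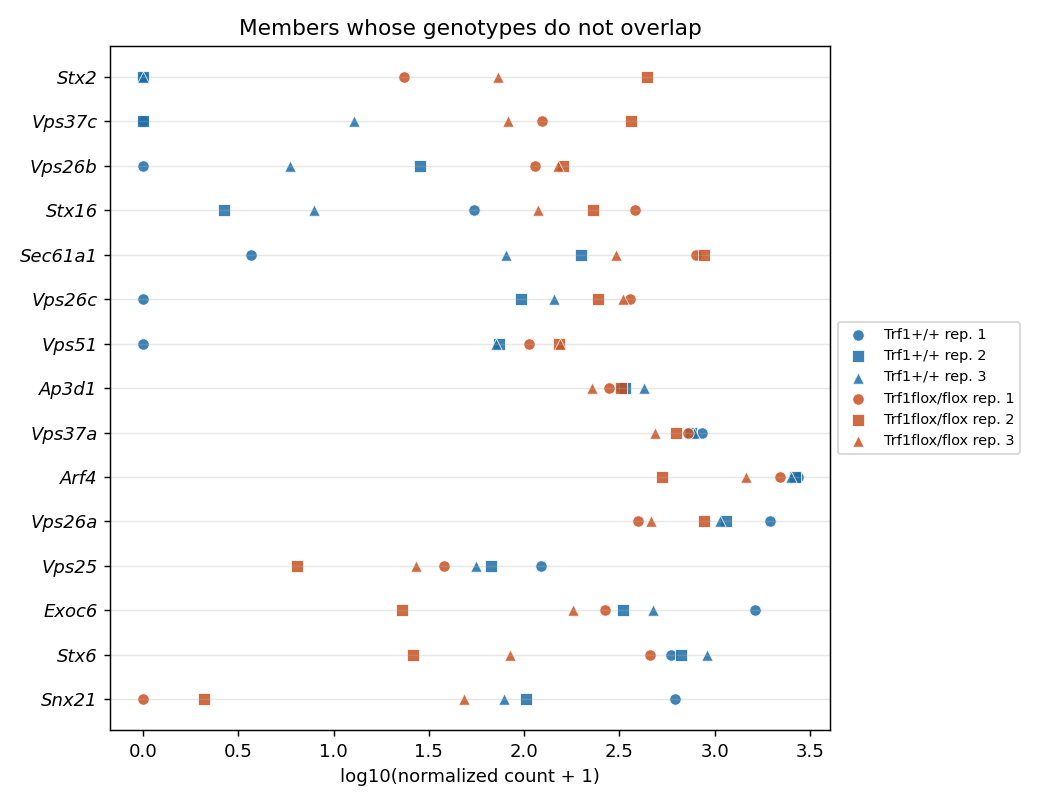
Log10(normalized count + 1) in each library for the 15 genes whose genotypes do not overlap; blue symbols are Trf1+/+ and orange symbols Trf1flox/flox libraries, with a symbol per replicate. The upper 7 genes are higher in Trf1flox/flox libraries, and *Ap3d1* and *Vps37a* show gaps that are narrow beside those of *Stx2* or *Snx21*.

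In retromer and retriever the VPS26 subunits lay on opposite sides. The complex is a trimer of VPS35, VPS29 and a VPS26 protein, and retriever is a related trimer of VPS35L, VPS29 and VPS26C. *Vps26a* (ENSMUSG00000020078, chromosome 10, 62455235 to 62486805) had 1942, 1142 and 1072 normalized counts in Trf1+/+ libraries, against 394, 873 and 461 in Trf1flox/flox libraries. All 3 Trf1flox/flox libraries were lower, with a log2 fold change of -1.30 ± 0.60 (SE). *Vps26b* (ENSMUSG00000031988, chromosome 9, 27007771 to 27030065) had 0, 27.3 and 4.93 against 113, 158 and 149.5 normalized counts, so that all 3 Trf1flox/flox libraries were higher, with a log2 fold change of 4.66 ± 2.31 (SE). *Vps26c* (ENSMUSG00000022898, chromosome 16, 94497783 to 94526830), the arrestin subunit of retriever, had 0, 95.3 and 143 against 357, 243 and 329 and was likewise higher in all 3 Trf1flox/flox libraries, with a log2 fold change of 3.67 ± 2.10 (SE). *Vps26b* and *Vps26c* had 0 reads in the library labelled Trf1+/+ replicate 1; without it their log2 fold changes were 3.43 and 1.38, and that of *Vps26a* was -1.03.

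The subunits that retromer holds with either VPS26 protein overlapped between genotypes. *Vps35*, the scaffold, had 2177, 1075 and 1002 normalized counts in Trf1+/+ libraries, against 613, 1770.4 and 905 in Trf1flox/flox libraries (log2 -0.42 ± 0.60). *Vps29*, which is common to retromer and retriever, had 4571, 2094 and 2795 against 1962, 2628 and 2537 (log2 -0.34 ± 0.46), with a 95% confidence interval of -1.34 to 0.66 for the log2 fold change, and its exons overlap *Fam216a* on the other strand. *Vps35l*, the scaffold of retriever, had 0.891, 34.8 and 214 against 211, 10.9 and 69.6 (log2 1.21 ± 2.52). Per kb of exon, *Vps26a* made up 100, 98.7 and 99.7% of the pair *Vps26a* and *Vps26b* in Trf1+/+ libraries and 86.2, 90.8 and 84.6% in Trf1flox/flox libraries. *Vps26a* was the larger part in every library, and the shares did not overlap, as follows from the direction of each gene; the pair was chosen after the values were seen.

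**Figure D4:**
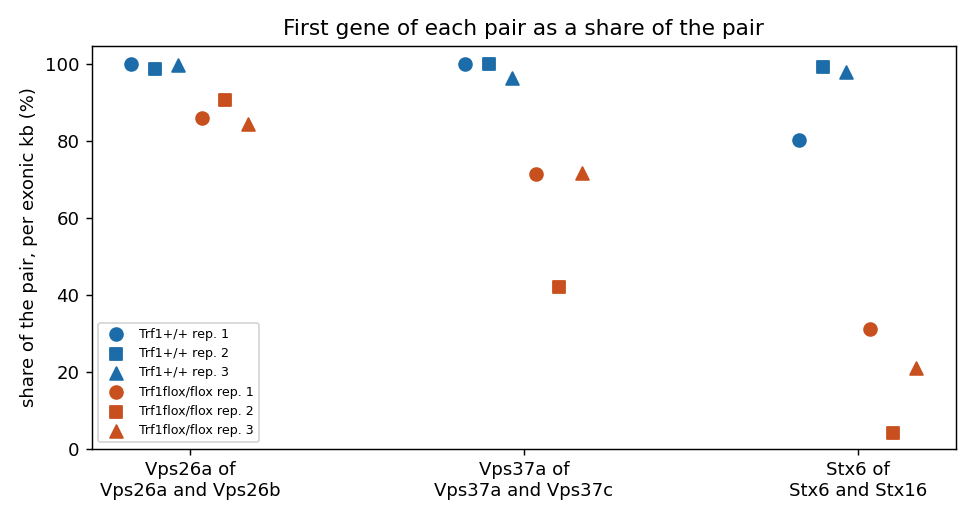
Share (percent, per kb of exon) of *Vps26a* in the pair with *Vps26b*, of *Vps37a* in the pair with *Vps37c* and of *Stx6* in the pair with *Stx16*, in each Trf1+/+ (blue) and Trf1flox/flox (orange) library. The Trf1+/+ libraries lie at 80.4% or more in all 3 pairs and the Trf1flox/flox libraries below them, down to 3.94% for *Stx6*; all 3 pairs were chosen after their values were seen.

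Sorting nexins bind endosomal phosphoinositides through a PX domain, and several of them shape the tubules that leave endosomes. Of 28, 25 were tested, and 14 were higher and 11 lower in Trf1flox/flox mice (median log2 fold change 0.25), against 9 higher and 16 lower with edgeR, 8 and 17 with DESeq2 and 11 and 13 without the library labelled Trf1+/+ replicate 1. *Snx3*, a retromer partner, had the highest level per kb of all 165 genes, a mean of 2012 normalized counts per kb, and 6018, 3223 and 2167 normalized counts in Trf1+/+ libraries, against 1889, 1508 and 2253 in Trf1flox/flox libraries (log2 -0.90 ± 0.49). Its genotypes overlapped only through Trf1flox/flox replicate 3, which lay above Trf1+/+ replicate 3. *Snx21* (ENSMUSG00000050373, chromosome 2, 164785823 to 164793816) was the sorting nexin whose genotypes did not overlap, with 616, 102 and 77.8 normalized counts in Trf1+/+ libraries, against 0, 1.09 and 47.5 in Trf1flox/flox libraries and a log2 fold change of -5.20 ± 2.44 (SE). Its first 2 Trf1flox/flox values were at the floor, and its exons overlap those of *Acot8* on the other strand, with which it shares 4.51% of its 31-base words.

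The SNX-BAR proteins that form tubules with retromer went in no common direction. *Snx1* had 2067, 835 and 795 against 1185, 730.0 and 756 normalized counts in Trf1+/+ and Trf1flox/flox libraries (log2 -0.36 ± 0.60). *Snx2*, its partner, had 1092, 6.63 and 1263 against 918, 1169 and 507 (log2 1.90 ± 1.59), and *Snx5* had 799, 929 and 41.4 against 218, 911 and 264 (log2 0.25 ± 1.21). *Snx2* was low in Trf1+/+ replicate 2 alone and *Snx5* in Trf1+/+ replicate 3 alone. *Snx6* had 2791, 946 and 1535 against 1031, 188 and 1723 (log2 -1.20 ± 0.80), and *Snx27*, which joins cargo with a PDZ-binding motif to retromer, had 114, 491 and 348 against 137, 2.19 and 318 (log2 -2.38 ± 1.85). *Snx17*, the cargo adaptor of retriever, had 0, 312 and 628 against 367, 107 and 253 (log2 1.89 ± 2.24), with its 0 in the library labelled Trf1+/+ replicate 1.

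ESCRT-I and ESCRT-II gather ubiquitinated cargo, and the ATPase VPS4 takes the assembled ESCRT-III apart. Of 7 genes 2 were higher and 5 lower in Trf1flox/flox mice (median log2 fold change -0.34), against 4 higher and 3 lower without the library labelled Trf1+/+ replicate 1. *Vps37a* (ENSMUSG00000031600, chromosome 8, 40511783 to 40551134), an ESCRT-I subunit, had 862, 752 and 775 normalized counts in Trf1+/+ libraries, against 722, 623 and 487 in Trf1flox/flox libraries. The Trf1flox/flox libraries were all lower, by a margin narrower than the spread within them, with a log2 fold change of -0.40 ± 0.59 (SE) and a 95% confidence interval of -1.70 to 0.90, and its exons overlap *Mtmr7* on the other strand. Its alternative, *Vps37c* (ENSMUSG00000048832, chromosome 19, 10688735 to 10714627), had 0, 0 and 11.8 against 123, 365 and 81.3 normalized counts, higher in all 3 Trf1flox/flox libraries by 6.05 ± 2.23 (SE) on the log2 scale. Without the library labelled Trf1+/+ replicate 1 this value was 5.44, and with any 1 library left out it was 5.43 to 7.28. Per kb of exon, *Vps37a* was 100, 100 and 96.5% of the pair in Trf1+/+ and 71.4, 42.00 and 71.7% in Trf1flox/flox libraries. That these shares did not overlap follows from the direction of each gene, and the pair was chosen after the values were seen.

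*Vps28*, another ESCRT-I subunit with the highest level per kb of exon in the class, had 3591, 1631 and 819.8 against 1018, 1739 and 1348 normalized counts in Trf1+/+ and Trf1flox/flox libraries (log2 -0.34 ± 0.60). Its exons overlap those of *Tonsl*. In ESCRT-II, *Vps36* had 1700.3, 718 and 302 against 532, 627 and 563 (log2 -0.32 ± 0.73). *Vps25* (ENSMUSG00000078656, chromosome 11, 101253707 to 101259549) had 122, 66.3 and 55.2 against 36.9, 5.46 and 26.2, lower in all 3 Trf1flox/flox libraries (log2 -2.04 ± 2.18; -2.55 to -1.27 with any 1 library left out), but 62.2% of its 31-base words also occur in the overlapping gene *Ramp2*, so that the value is uncertain. *Vps4a* had 0, 3.31 and 409.9 against 420.2, 538 and 371 normalized counts (log2 5.18 ± 2.31): 2 of the 3 Trf1+/+ libraries were near or at 0, and replicate 3 lay among the Trf1flox/flox libraries. *Vps4b*, which encodes the other VPS4 ATPase, had 1269, 384 and 377 against 181, 497 and 506 (log2 -0.67 ± 0.82).

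SNAREs pair across membranes and drive their fusion. Of 20 SNARE genes 18 were tested, and 11 were higher and 7 lower in Trf1flox/flox mice (median log2 fold change 0.25), against 9 higher and 9 lower with edgeR, 9 and 9 with DESeq2 and 9 and 9 without the library labelled Trf1+/+ replicate 1. *Stx2* (ENSMUSG00000029428, chromosome 5, 128984557 to 129008574), a plasma membrane syntaxin also called epimorphin, was listed at 0, 0 and 0 in Trf1+/+ libraries, against 22.3, 439 and 71.7 normalized counts in Trf1flox/flox libraries. The mean of the Trf1flox/flox libraries was 65.7-fold the limit of 3 reads per library taken for a count of 0. That mean rests mostly on the 439 of Trf1flox/flox replicate 2, and the Trf1flox/flox libraries themselves spanned a wide range. The limit covers counting error only, and 43.8% of all genes were at the floor in the library labelled Trf1+/+ replicate 1. The ratio is therefore no lower bound for the mice. Its log2 fold change was 6.50 ± 1.85 (SE), with an adjusted p of 0.970 in limma, 0.999 in edgeR and 0.00692 in DESeq2. *Stx2* was the 1 gene of the 153 that passed the filter through Trf1flox/flox libraries alone, so that it had to differ, and its p-values are no independent evidence. With all Trf1+/+ libraries at 0 the fitted value depends on the count added before taking logarithms: it was 7.49 and 4.29 with 0.5 and 5 added, 10.1 in DESeq2 and 10.6 in edgeR. Without any 1 Trf1flox/flox library the gene was below the filter. Its exons overlap no other gene.

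*Stx6* and *Stx16* encode partners in 1 SNARE complex for vesicles that return from endosomes to the trans-Golgi network, and their directions were opposite. *Stx6* (ENSMUSG00000026470, chromosome 1, 155158715 to 155208256) had 588, 667 and 909 normalized counts in Trf1+/+ libraries, against 458, 25.1 and 83.4 in Trf1flox/flox libraries, lower in all 3 (log2 -2.82 ± 1.13; -3.92 to -1.85 with any 1 library left out). *Stx16* (ENSMUSG00000027522, chromosome 2, 174076308 to 174099771) had 53.4, 1.66 and 6.90 against 379, 228 and 117, higher in all 3 (log2 4.38 ± 2.18). *Stx6* was 80.4, 99.3 and 98.00% of the pair per kb of exon in Trf1+/+ and 31.04, 3.94 and 20.96% in Trf1flox/flox libraries. That these shares did not overlap follows from the direction of each gene, and the pair was chosen after the values were seen. As partners in 1 complex the proteins are not alternatives, so the share shows no exchange of one for the other. *Stx16* is the gene of the 7 that was above the floor in the library labelled Trf1+/+ replicate 1, where it was at its highest Trf1+/+ value. *Vamp4*, another member of that complex, had 168, 126 and 339 against 431, 0 and 631 normalized counts (log2 -1.58 ± 2.26), with a 0 in Trf1flox/flox replicate 2.

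Among the SNAREs of late endosomes, *Vamp8* varied least between libraries. It encodes an R-SNARE of late endosomes and secretory granules, and had 2423, 2738 and 2414 against 3329, 2242 and 3842 normalized counts in Trf1+/+ and Trf1flox/flox libraries, a 1.71-fold range over the 6 libraries. Its log2 fold change was 0.28 ± 0.43 (SE), with a 95% confidence interval of -0.66 to 1.22. *Stx7*, its partner, had 3277, 2936 and 1549 against 1284, 1110.3 and 1968 (log2 -0.80 ± 0.50), whereas *Stx8*, from the same complex, had 0.891, 393 and 102 against 565, 1.09 and 244 (log2 0.64 ± 2.80) and was at 1 read in 2 libraries. At the epithelial surface, *Stx3*, the apical syntaxin, had 2614, 329 and 248 against 313, 196 and 203 (log2 -1.37 ± 0.98), and *Stx4a*, the basolateral one, had 494, 5.80 and 63.1 against 9.45, 39.3 and 122 (log2 -0.69 ± 2.36). Both were highest in the library labelled Trf1+/+ replicate 1.

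Between ER and Golgi, *Stx5a* had 407, 378 and 64.0 against 370.3, 729 and 239.8 normalized counts (log2 0.90 ± 1.02), *Sec22b* 2199, 146 and 439 against 658, 271 and 852 (log2 0.035 ± 0.97), and *Stx18* 1509, 204 and 214 against 135, 236 and 218 (log2 -1.08 ± 1.03). The genotypes overlapped for each of them. *Stx17*, the syntaxin of autophagosomes, had 0.891, 442 and 0 against 143, 64.5 and 205 (log2 3.73 ± 2.71). Of its Trf1+/+ libraries 2 were at the floor, and the other lay above all 3 Trf1flox/flox libraries. *Vamp2* and *Vamp3*, R-SNAREs of recycling and secretory vesicles, had 0.891, 219.6 and 234 and 107, 0.829 and 227 in Trf1+/+ libraries and 154, 87.4 and 76.5 and 230.3, 1.09 and 380.4 in Trf1flox/flox libraries, respectively.

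Of the 7 tested COPI genes of this list 6 were higher and 1 lower in Trf1flox/flox mice (median log2 fold change 0.30), against 5 and 2 without the library labelled Trf1+/+ replicate 1 (median 0.45), and in none did the genotypes separate. The symbol rule leaves out *Arcn1*, a further subunit of this coat. It had 4632, 1028 and 868 against 1343, 755 and 702 normalized counts in Trf1+/+ and Trf1flox/flox libraries (log2 -0.85 ± 0.69), and its genotypes overlapped. The class summed to 9929, 6303 and 5393 normalized counts in Trf1+/+ libraries, against 9196, 11820.0 and 5190.3 in Trf1flox/flox libraries. *Cope*, with the highest level per kb of exon in the class, had 2689.9, 1256 and 1583 against 2826, 2881 and 1178 (log2 0.28 ± 0.54), and *Copa*, the large outer subunit, had 2376, 545 and 494 against 2066, 1382 and 762 (log2 0.59 ± 0.71). The least even subunit was *Copg1*, with 0.891, 563 and 460.2 against 735, 556 and 286 (log2 2.63 ± 1.89), whose single read in the library labelled Trf1+/+ replicate 1 stood beside 3286 normalized counts of *Copz1*, its partner in the same subcomplex. *Copg2*, the alternative to *Copg1*, was at the floor in 4 libraries and had 193 and 18.6 normalized counts in Trf1flox/flox replicates 2 and 3. Its exons overlap *Mest* on the other strand, where 16.9% of its 31-base words occur.

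Arf GTPases recruit COPI and the clathrin adaptors in their GTP-bound form. Of the 6, 1 was higher and 5 lower in Trf1flox/flox mice (median log2 fold change -0.40), and their sums were 7781, 7291 and 5095 and 5007, 5219 and 4376. *Arf1* had 3819, 2700.3 and 1034 against 1865, 2353 and 1608 normalized counts in Trf1+/+ and Trf1flox/flox libraries (log2 -0.20 ± 0.55). *Arf4* (ENSMUSG00000021877, chromosome 14, 26638074 to 26665084) had 2724, 2625 and 2529 against 2191, 527 and 1466: the Trf1+/+ libraries lay within a narrow band and all 3 Trf1flox/flox libraries beneath it (log2 -1.14 ± 0.57). With any 1 library left out this value was -1.58 to -0.55, and it was smallest in size without Trf1flox/flox replicate 2. Its exons overlap *Arf4os* and *Pde12* on the other strand, and 12.8% of its 31-base words occur in *Pde12*. *Arf2* (ENSMUSG00000062421, chromosome 11, 103966739 to 103985337) had 0, 0 and 202 against 198, 679.7 and 276 normalized counts (log2 5.83 ± 2.56), and the genotypes overlapped, since Trf1+/+ replicate 3 lay just above the library labelled Trf1flox/flox replicate 1. Per kb of exon *Arf1* was still 100, 100 and 88.01% of the pair *Arf1* and *Arf2* in Trf1+/+ and 93.1, 83.2 and 89.3% in Trf1flox/flox libraries. *Arf6*, the plasma membrane Arf, had 32.1, 302 and 144 against 52.4, 79.8 and 26.9 (log2 -1.20 ± 1.83).

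**Figure D5:**
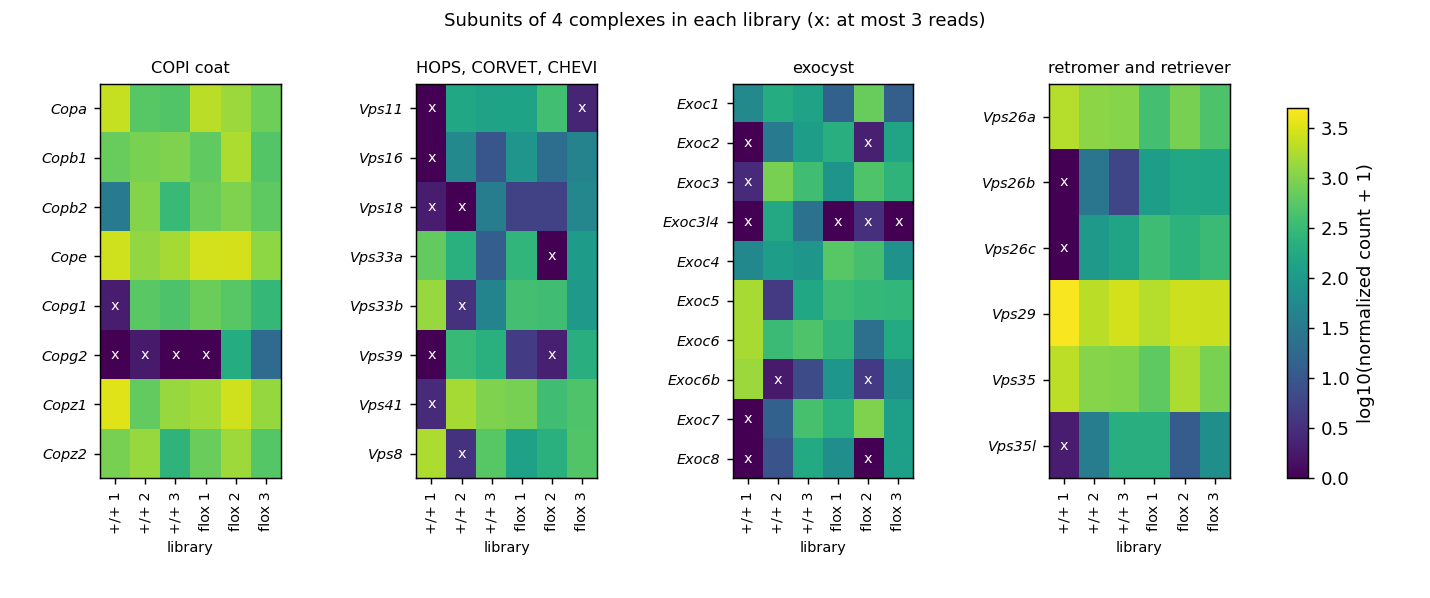
Log10(normalized count + 1) (colour) in the 3 Trf1+/+ (+/+) and 3 Trf1flox/flox (flox) libraries (columns), where x marks at most 3 reads. Rows are the genes selected by symbol in the COPI coat, the HOPS, CORVET and CHEVI tethers, the exocyst, and retromer and retriever. The COPI subunit gene *Arcn1* is not among them. In the first column 5 of 8 HOPS, CORVET and CHEVI genes and 5 of 10 exocyst genes carry an x, next to subunits at their highest values.

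COPII consists of an inner layer of SEC23 and SEC24, which select cargo, and an outer cage of SEC13 and SEC31. Of 11 genes 9 were tested, and 4 were higher and 5 lower in Trf1flox/flox mice (median log2 fold change -0.52). *Sec13* had 1341, 669 and 818 against 1117, 1819.6 and 613 normalized counts in Trf1+/+ and Trf1flox/flox libraries (log2 0.25 ± 0.61). *Sec31a* had 24.9, 112 and 499 against 441, 802 and 562 (log2 2.36 ± 1.16), and only Trf1+/+ replicate 3 reached the Trf1flox/flox libraries. *Sec31b* (ENSMUSG00000051984, chromosome 19, 44516957 to 44545864), its low relative, did not pass the filter: 1 read was found over the Trf1+/+ libraries and 54 over the Trf1flox/flox libraries, at 0, 0 and 0.985 against 11.2, 4.37 and 25.5 normalized counts. The ratio was 51.2, with an exact 95% interval of 8.80 to 2058 that covers counting error only and describes a gene chosen for this difference. *Sec23a* had 0.891, 285 and 172 against 12.0, 2.19 and 26.9 (log2 -2.11 ± 2.57) and *Sec23b* 17.8, 227 and 1185 against 1.72, 949.7 and 575 (log2 -0.59 ± 2.25). *Sec16a*, which marks ER exit sites, had 0, 336 and 151 against 245, 945 and 286 (log2 3.45 ± 2.07), with its 0 in the library labelled Trf1+/+ replicate 1.

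The translocon carries nascent chains into the ER, and signal peptidase cleaves them. Of 8 genes 4 were higher and 4 lower in Trf1flox/flox mice (median log2 fold change 0.058), against 7 higher and 1 lower with upper quartile scaling, 5 and 3 with edgeR, 5 and 3 with DESeq2 and 5 and 3 without the library labelled Trf1+/+ replicate 1. *Sec61a1* (ENSMUSG00000030082, chromosome 6, 88503579 to 88518905), the channel, had 2.67, 197 and 79.8 normalized counts in Trf1+/+ libraries, against 796, 876 and 301 in Trf1flox/flox libraries, higher in all 3 (log2 3.94 ± 1.59). Without the library labelled Trf1+/+ replicate 1, where it had 3 reads, the log2 fold change was 2.23. The antisense gene *Gm44170* overlaps it and holds 7.15% of its 31-base words. *Sec61a2* had 0.891, 29.8 and 113 against 106, 153 and 245 (log2 3.08 ± 2.20), and overlapped between genotypes. Its exons overlap *Nudt5* on the other strand, where 18.7% of its 31-base words occur.

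The small channel subunits overlapped between genotypes. *Sec61b* had 1111, 1402 and 1029 against 819, 945 and 1353 normalized counts (log2 -0.20 ± 0.53; 95% confidence interval -1.35 to 0.95), and *Sec61g* 403, 752 and 510.4 against 408, 542 and 987 (log2 0.17 ± 0.68). *Sec62*, which helps post-translational import, was the steadiest of the abundant genes with 3422, 3076 and 3783 against 2365, 2935 and 3299, a 1.60-fold range over the 6 libraries. Its log2 fold change was -0.27 ± 0.41 (SE) with a 95% confidence interval of -1.16 to 0.63. The signs of *Sec61b* and *Sec62* turned with upper quartile scaling, and 23.5% and 11.1% of their 31-base words occur in other genes. *Sec63*, the partner of *Sec62*, had 0.891, 265 and 155 against 724, 32.8 and 413 (log2 2.34 ± 2.17). *Sec11a* and *Sec11c*, the catalytic subunits of signal peptidase, had 1996, 1296 and 688 and 1603, 555 and 464 in Trf1+/+ and 1403, 514 and 2227 and 713, 427 and 709 in Trf1flox/flox libraries.

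AP-1 works between the trans-Golgi network and endosomes and AP-2 in clathrin uptake at the plasma membrane. Of 13 genes 12 were tested, and 7 were higher and 5 lower in Trf1flox/flox mice (median log2 fold change 0.20), against 7 and 5 without the library labelled Trf1+/+ replicate 1 (median 0.076). *Ap2m1*, the cargo-binding subunit of AP-2, had 4726, 1212 and 2156 against 1856, 1559 and 1649 normalized counts in Trf1+/+ and Trf1flox/flox libraries (log2 -0.46 ± 0.55), and 32.4% of its 31-base words occur elsewhere, mostly in *Gm13509*. *Ap2a2* had 229.8, 528 and 764 against 71.3, 129 and 359.7 (log2 -1.59 ± 1.02), while *Ap2s1* had 442, 262 and 353 against 163, 1250.2 and 442 (log2 0.38 ± 0.89). *Ap1m2*, the epithelial AP-1 subunit for basolateral sorting, had 0, 317 and 217 against 503, 0 and 354 (log2 0.46 ± 3.07), with its zeros in the library labelled Trf1+/+ replicate 1 and in Trf1flox/flox replicate 2. *Ap1m1*, the ubiquitous counterpart, had 0.891, 0.829 and 303 against 0, 256 and 185 (log2 1.84 ± 2.94), so that the library labelled Trf1+/+ replicate 1 was at the floor for both.

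AP-3 carries cargo to lysosomes, AP-4 leaves the trans-Golgi network and AP-5 acts at late endosomes. Of the 12 genes 7 were higher and 5 lower in Trf1flox/flox mice (median log2 fold change 0.78), against 3 higher and 9 lower with edgeR, 3 and 9 with DESeq2 and 4 and 8 without the library labelled Trf1+/+ replicate 1, and 8 were at the floor in the library labelled Trf1+/+ replicate 1. *Ap3d1* (ENSMUSG00000020198, chromosome 10, 80706956 to 80742264), the large subunit of AP-3, had 322, 339 and 427 against 279, 322 and 227 normalized counts in Trf1+/+ and Trf1flox/flox libraries. The lowest Trf1+/+ and the highest Trf1flox/flox value differed by less than 1 normalized count, and the log2 fold change was -0.40 ± 0.82 (SE) with a 95% confidence interval of -2.19 to 1.40. *Ap3b1*, the other large subunit, had 0, 217 and 433 against 413, 387 and 179.9 (log2 2.75 ± 2.13). *Ap5m1*, with the highest mean normalized count of the class but not the highest level per kb of exon, had 2.67, 400.2 and 426 against 179, 605 and 322 (log2 1.94 ± 1.76), or -0.34 without the library labelled Trf1+/+ replicate 1, and its exons overlap those of *Exoc5* on the other strand.

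HOPS and CORVET tether late and early endosomes, and CHEVI contains VPS33B. Of 8 genes 7 were tested, and 5 were higher and 2 lower in Trf1flox/flox mice (median log2 fold change 0.83), against 2 higher and 5 lower with edgeR, 2 and 5 with DESeq2 and 3 and 4 without the library labelled Trf1+/+ replicate 1. None of the 8 was above the floor in all 6 libraries. In the library labelled Trf1+/+ replicate 1 *Vps8*, *Vps33a* and *Vps33b* had 1779, 645 and 1324 normalized counts, each its highest value of the 6, while *Vps11*, *Vps16*, *Vps18*, *Vps39* and *Vps41* had at most 2 reads. *Vps41*, with the highest mean normalized count but not the highest level per kb of exon, had 1.78, 1589 and 968 in Trf1+/+ and 875, 364 and 474 in Trf1flox/flox libraries (log2 1.72 ± 1.92). Without the library labelled Trf1+/+ replicate 1 the log2 fold change of *Vps41* was -1.22. *Vps11*, a core subunit of both complexes, had 0, 166 and 134 against 138, 384 and 1.38 (log2 0.83 ± 2.86).

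The exocyst tethers secretory vesicles at the plasma membrane. Of 10 genes 9 were tested, and 7 were higher and 2 lower in Trf1flox/flox mice (median log2 fold change 1.15), against 3 higher and 5 lower without the library labelled Trf1+/+ replicate 1. *Exoc6* (ENSMUSG00000053799, chromosome 19, 37550418 to 37684059), one of the SEC15 subunits that bind Rab GTPases, had 1618, 328 and 475 normalized counts in Trf1+/+ libraries, against 264, 21.9 and 179.9 in Trf1flox/flox libraries. It was lower in all 3 Trf1flox/flox libraries, with a log2 fold change of -2.62 ± 1.18 (SE), -3.30 to -1.53 with any 1 library left out, and shares no 31-base word with another gene. *Exoc6b*, its paralog, had 1387, 0.829 and 5.91 against 87.6, 3.28 and 70.3 (log2 0.21 ± 2.87). *Exoc7*, which binds membrane phosphoinositides, had 0, 13.3 and 421 against 226, 954 and 123 (log2 4.04 ± 2.33), and *Exoc4* 51.7, 117 and 89.7 against 546, 399 and 78.6 (log2 1.65 ± 1.33). Both overlapped between genotypes.

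GARP and EARP tether vesicles at the trans-Golgi network and at recycling endosomes, and share *Vps51*, *Vps52* and *Vps53*. Of the 5 genes 2 were higher and 3 lower in Trf1flox/flox mice (median log2 fold change -0.0030), against 3 higher and 2 lower with upper quartile scaling, 3 and 2 with edgeR and 3 and 2 with DESeq2, and 2 and 3 without the library labelled Trf1+/+ replicate 1 (median -1.07). *Vps51* (ENSMUSG00000024797, chromosome 19, 6067842 to 6077231) had 0, 72.9 and 70.0 against 105, 151 and 153 normalized counts in Trf1+/+ and Trf1flox/flox libraries, higher in all 3 Trf1flox/flox libraries (log2 2.96 ± 2.35). Without the library labelled Trf1+/+ replicate 1 the log2 fold change was 0.90, and 16.3% of its 31-base words occur in other genes, mostly in the overlapping *Tm7sf2*. *Vps53* had 159, 609.8 and 87.7 against 109, 0 and 143 (log2 -3.03 ± 2.27), and *Vps52* 18.7, 225 and 218 against 19.8, 475 and 119.9 (log2 0.098 ± 1.79). *Vps54*, specific to GARP, had 1052, 278 and 247 against 197, 997 and 366 (log2 -0.0030 ± 0.91), and *Vps50*, specific to EARP, 606, 27.3 and 87.7 against 6.01, 1.09 and 130.2 (log2 -3.21 ± 2.48).

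TRAPP complexes activate Rab GTPases at the Golgi. Of 14 genes 13 were tested, and 10 were higher and 3 lower in Trf1flox/flox mice (median log2 fold change 0.44), against 8 and 5 without the library labelled Trf1+/+ replicate 1 (median 0.073). The class summed to 5699, 5049 and 5435 normalized counts in Trf1+/+ libraries, against 4988, 7915 and 5381 in Trf1flox/flox libraries, a 1.59-fold range, and 10 of the 14 genes were above the floor in all 6 libraries. *Trappc3*, a core subunit, had 914, 425 and 1362 against 890.2, 949 and 562 (log2 -0.053 ± 0.64; 95% confidence interval -1.46 to 1.35). *Trappc5*, another core subunit, had 5.34, 205 and 56.2 against 139, 726 and 391 (log2 3.02 ± 1.65), and *Trappc2*, the gene of an X-linked skeletal dysplasia, 6.23, 437 and 85.7 against 241, 306 and 405 (log2 2.26 ± 1.60). In all 3 of these genes the genotypes overlapped.

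The VPS13 proteins pass lipids between membranes at contact sites. Of their 4 genes 3 were higher and 1 lower in Trf1flox/flox mice (median log2 fold change 1.63), against 2 higher and 2 lower with edgeR, 2 and 2 with DESeq2 and 2 and 2 without the library labelled Trf1+/+ replicate 1, and the genotypes overlapped in each. *Vps13b* had 739, 314 and 511 against 610.0, 222 and 298 normalized counts in Trf1+/+ and Trf1flox/flox libraries (log2 -0.52 ± 0.79), and *Vps13d* 2.67, 18.2 and 365 against 545, 186 and 207 (log2 3.23 ± 1.96). Of the 2 SEC14-like genes 1 was higher and 1 lower (median log2 fold change -0.40). *Sec14l1* had 703, 335 and 172 against 1119.6, 742 and 355 (log2 0.95 ± 0.81), and *Sec14l3* 857, 0 and 144 against 61.0, 0 and 52.4 (log2 -1.74 ± 2.97). The remaining 3 genes lie outside these machines: *Vps45*, a fusion factor for syntaxins, with 111, 61.3 and 21.7 against 88.5, 0 and 121, *Vps72*, with 49.0, 288 and 374 against 0.859, 164 and 169, and *Vps9d1*, with 0.891, 138 and 10.8 against 112, 7.65 and 45.5. Their log2 fold changes were -1.29, -2.23 and 1.29, each smaller than or close to its standard error (2.54, 2.15 and 2.46). That of *Vps72* rested on 1 library and was -0.069 without the library labelled Trf1flox/flox replicate 1.

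The 12 genes that did not pass the filter were *Ap1s2*, *Copg2*, *Exoc3l4*, *Sec22c*, *Sec24d*, *Sec31b*, *Snx10*, *Snx31*, *Snx33*, *Trappc10*, *Vamp1* and *Vps18*. Several were high in a few libraries. *Sec22c* had 848, 0.829 and 3.94 normalized counts in Trf1+/+ libraries, against 0, 0 and 0 in Trf1flox/flox libraries, and *Snx31* had 0, 0.829 and 0 against 0, 339.9 and 138. *Ap1s2* was at 0 in 4 libraries and had 65.6 and 84.8 in Trf1flox/flox replicates 2 and 3. *Sec24d* had 0, 286 and 1.97 against 127, 1.09 and 0. A separate set of 12 genes were at the floor in the library labelled Trf1+/+ replicate 1 and at 100 normalized counts or more in each of the other 5 libraries: *Ap1b1*, *Ap3b1*, *Ap4s1*, *Ap5m1*, *Copg1*, *Sec16a*, *Sec22a*, *Snx17*, *Snx29*, *Snx4*, *Trappc6a* and *Vps41*. The share of such genes among all genes listed was not counted.

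A further 98 genes of the same routes, such as clathrin, the WASH and COMMD partners of retromer and retriever, ESCRT-III, COG and the SNARE fusion factors, were listed by hand for comparison. Of these 95 were listed and 92 tested, and 41 were higher and 51 lower in Trf1flox/flox mice (median log2 fold change -0.15). No gene had an adjusted p under 0.05 in limma, 4 had an unadjusted p under 0.05 (background 3.13%), and 13 (14.1%) did not overlap between genotypes, against 8.68% of all tested genes. The 6 higher ones (background 5.35%) were *Kdelr1*, *Cltb*, *Washc1*, *Chmp3*, *Ist1* and *Gosr2*, and the 7 lower ones (background 3.33%) *Commd7*, *Chmp1b*, *Chmp5*, *Cog6*, *Uso1*, *Snap23* and *Scfd2*.

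At the Golgi, *Gosr2*, a SNARE that pairs with syntaxin 5, had 7.13, 178 and 94.6 normalized counts in Trf1+/+ libraries, against 936, 484 and 475 in Trf1flox/flox libraries (log2 3.53 ± 1.37), and *Kdelr1*, a receptor that returns ER proteins by COPI, 29.4, 370.4 and 8.87 against 379.8, 459 and 469 (log2 3.18 ± 1.52). Both were higher in all 3 Trf1flox/flox libraries. The tethers *Uso1* and *Cog6* were lower in all 3: *Uso1*, which encodes p115, had 415, 468 and 422 against 91.9, 82.0 and 245 (log2 -1.81 ± 0.99), and *Cog6*, a subunit of the COG complex, 724, 353 and 676 against 0.859, 9.84 and 88.9 (log2 -5.52 ± 1.91). At endosomes, *Washc1*, of the actin-nucleating WASH complex that retromer recruits, had 14.3, 6.63 and 69.0 against 271, 279.8 and 189.5 (log2 3.60 ± 1.86). *Cltb*, a clathrin light chain, had 175, 431 and 537 against 1802, 1558 and 646 (log2 1.82 ± 0.72). Within ESCRT-III, *Chmp3* and *Ist1* were higher and *Chmp1b* and *Chmp5* lower in all 3 Trf1flox/flox libraries. *Chmp3* had 306, 665 and 302 against 1093, 1216 and 783 (log2 1.36 ± 0.65), and *Chmp1b* 758, 560.1 and 456 against 327, 157 and 129 (log2 -1.62 ± 0.84). *Ist1* had 20.5, 569 and 468 against 590, 886 and 803 (log2 2.07 ± 1.17), lowest by far in the library labelled Trf1+/+ replicate 1. *Chmp5* had 1041, 1569 and 1472 against 982, 887 and 989 (log2 -0.49 ± 0.51), a narrow gap.

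Some markers of other cells also lay apart by genotype. Of the 8 loop and distal tubule markers 3 were lower in all 3 Trf1flox/flox libraries (background 3.33%): *Slc12a3*, *Calb1* and *Wnk1*. None was higher in all 3 (background 5.35%), while *Umod* and *Slc12a1* had their highest values in Trf1flox/flox replicate 1. *Trac*, a T cell receptor gene, was the only 1 of 7 T cell markers with a row. It was listed at 0 in all Trf1+/+ libraries, against 172, 216 and 61.3 normalized counts in Trf1flox/flox libraries. *Trac* passed the filter through Trf1flox/flox libraries alone, so that it had to differ. Collecting duct markers summed to 648 to 9050 in Trf1+/+ and 995 to 18365 in Trf1flox/flox libraries, and erythroid genes to 238 to 10472 and 121 to 52403. Macrophage markers, 4 of 7 with a row, summed to 279.8 to 1283 and 0 to 2513, and the endothelial marker *Pecam1* had 0.859 to 12.0 in all libraries. Their part in the values of the traffic genes was not tested.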

How the data were processed

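Poly(A) RNA of 500 sorted kidney cells per mouse was reverse transcribed with oligo(dT) and template switching, amplified and sequenced without strand information. The authors trimmed adaptors and poly(A) and, per the paper's methods, aligned reads with TopHat 2.0.10 and Bowtie 1.0.0 and counted them with HTSeq 0.6.1 on GENCODE genes of GRCm38. The submitters' processing notes name GRCm39 and DESeq2 instead, so the build of the counts is open. Gene positions and sequences here are from GENCODE M21 on GRCm38, to which all 165 genes were matched by symbol. The read length is not given in the sources used here. The deposited values are normalized counts (a signal, with 1 size factor per library). Of these 100% were whole multiples of a single read, within a tolerance of 0.01 reads, so that reads were recovered.

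Groups follow the genotype labels, and replicates were numbered by order of accession, which pairs no mice. The labels do not name a batch. The p-values set the difference between genotypes against the spread within genotypes among these 6 libraries. Log2(normalized count + 1) was fitted with limma 3.58.1 (R 4.3.3; prior variance as a trend over the mean) for the 9966 genes that reached 10 normalized counts in 3 or more libraries, and p-values were adjusted by Benjamini-Hochberg over all of them. Recovered reads were tested with edgeR 4.0.16 (quasi-likelihood) and DESeq2 1.42.0. Errors of log2 fold changes are limma standard errors. Levels of different genes were compared per kb of merged exons, and overlaps by shared 31-base words of transcripts. The script was tested on simulated data. Other pseudocounts (0.5 and 5), filters (none and 50), upper quartile scaling and leaving out each library were tried, and, after seeing the data, leaving out both libraries with the most zeros and a fit without the trend.

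Genes described were those whose libraries do not overlap, the highest mean of each class, the 5 smallest unadjusted p, the 5 smallest residual SDs among genes that averaged 100 or more in both genotypes, and genes at the floor in 1 genotype alone, with subunits and paralogs beside them. Members, classes and lists were chosen with earlier results of these data known.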

Additional observations from a re-analysis of the deposited data

How the results depend on the processing

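Of the traffic genes, 88 of 153 were higher in Trf1flox/flox mice, against 99 of 153 with upper quartile scaling (63.9% of all genes), 75 and 74 of 153 with edgeR and DESeq2 (48.3% of all genes in each) and 72 of 150 without the library labelled Trf1+/+ replicate 1, so that the higher genes were the majority neither with edgeR or DESeq2 nor without that library. The count with an adjusted p under 0.05 stayed at 0 except with DESeq2, where it was 1 (*Stx2*). The median log2 fold change turned to -0.12 with edgeR and -0.087 with DESeq2, where the medians of all tested genes were -0.045 and -0.052, and was 0.44 for all genes after upper quartile scaling. With each library left out it was -0.039 to 0.48, the lowest without the library labelled Trf1+/+ replicate 1, where that of all genes was -0.024. The genes that did not overlap numbered 12 of 153 with upper quartile scaling (background 8.69%), fewer than the 15 as reported. With each library left out they numbered 26 to 35 of 141 to 150 tested (background 14.6% to 25.5%). They were 62 of 145 (background 28.8%) without the library labelled Trf1+/+ replicate 1 and Trf1flox/flox replicate 2. With fewer libraries separation is easier by construction. Of the 33 named genes with a fitted value, 22 had the same sign in every alternative run, among them the 15 that do not overlap, whose sign no left-out library, pseudocount or filter could turn, and 28 of 489 values had the other sign. With any 1 library left out, 26 of the 33 moved by over 1.5 times or changed sign. With upper quartile scaling *Arf1*, *Sec61b*, *Sec62*, *Trappc3* and *Vps54* became 0.080, 0.074, 0.013, 0.23 and 0.28. With edgeR *Vps41* and *Vps54* became -0.64 and 0.045, and with DESeq2 -0.58 and 0.0092. With each library left out *Ap2m1* ranged from -0.92 to 0.059, *Ap5m1* from -0.34 to 3.09, *Arf1* from -0.74 to 0.20, *Sec13* from -0.12 to 0.66, *Trappc3* from -0.52 to 0.32, *Vps28* from -0.86 to 0.21, *Vps41* from -1.22 to 3.36 and *Vps54* from -0.63 to 0.66. Without both libraries named above, *Ap2m1*, *Ap5m1*, *Arf1*, *Vps13b*, *Vps28*, *Vps41* and *Vps54* became 0.11, -0.78, 0.051, 0.089, 0.018, -0.94 and 0.034. The cause of these sign changes was not tested. No paired analysis was possible because the labels give no replicate numbers. Genes at the floor could not be told from genes not captured at 500 cells per library.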
